A study of Homo sapiens with 4 samples.

Results

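The 55 genes described here code for the machinery that copies DNA and for the switch from G1 into S phase: origin licensing, replication fork, nucleotide synthesis and G1/S control genes. They were chosen by gene symbol, and each of the 55 symbols matched a row of the 50868-gene table. Messenger RNA was sequenced in KBM5, an established myeloid line from a patient with chronic myeloid leukemia that carries the BCR-ABL fusion kinase, in 4 groups of 1 library each. The IM-DSF cells received both agents, the IM cells IM alone, the DSF cells DSF alone, and the CTR cells served as control. The labels spell out neither agent; here IM is taken to be imatinib, which inhibits the BCR-ABL kinase, and DSF to be disulfiram, and neither dose nor time is stated. The title of the study asks about joint targeting of GPX4 and the BCR-ABL kinase in leukemia stem cells that carry BCR-ABL. All 4 groups are the same line, which is a culture model of leukemia cells and not a sorted stem cell fraction as far as the labels say. There were no replicates, so every difference below is between individual libraries and carries no p-value.

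Before S phase, the origin recognition complex and the loaders CDC6 and CDT1 place the ring-shaped MCM helicase on DNA, and geminin (GMNN) blocks a repeat of that step by binding CDT1. Cyclin E with its kinase partner and the DBF4-dependent kinase CDC7 then activate the helicase together with CDC45 and the GINS complex, and polymerases, the sliding clamp PCNA and its loader RFC, the single-strand binding protein RPA and a supply of deoxynucleotides carry the fork. Many of these genes are known targets of E2F transcription factors, which are held back by the retinoblastoma protein until cyclin-dependent kinases release them, and BCR-ABL signalling is known to drive this release in leukemia cells.

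All 55 genes reached an average of 1 FPKM over the 4 libraries (FPKM counts fragments relative to gene length and to the depth of the library), as did 11004 genes of the table. Fragment numbers could be worked back from the deposited values, and libraries scaled to 12443256 (IM-DSF) to 15810648 (IM) fragments gave between 87 fragments (GINS3) and 10465 (MCM4) for a member. The fold intervals below are 95% exact binomial intervals on these numbers; they cover counting error only, and copies made by PCR make them too narrow. The myeloid identity of the line was visible: 9 of 9 myeloid markers passed the filter and summed to 2704 FPKM in IM-DSF, 2754 in IM, 2172 in DSF and 1632 in CTR. All 9 were higher in IM than in CTR (median log2 difference 0.67), as were 5844 of the 11004 tested genes. In DSF 8 of the 9 were higher than in CTR (median 0.40), as were 5503 of all tested genes. In IM-DSF against DSF 6 were higher and 3 lower, where 5685 of all tested genes were higher and 5317 lower. The marker median there was 0.05, but the differences ran from -0.24 in SPI1 to 1.46 in LYZ. The markers of other lineages were near 0, with erythroid and megakaryocyte markers summing to at most 0.0821 FPKM (HBA1, ALAS2 and PF4 at 0) and lymphoid markers to 0.404 to 0.485 FPKM (CD3E, MS4A1 and CD2 at 0). Of 3 stromal markers only PECAM1, which some blood cells also make, reached the filter, with 4.23 FPKM in IM-DSF, 1.95 in IM, 1.41 in DSF and 1.37 in CTR. Whether the shift in the myeloid markers has a part in the differences of the replication genes was not tested.

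Most of the replication genes were lower in both libraries that received IM. Their 55 values summed to 1025 FPKM in IM-DSF, 1163 in IM, 1400 in DSF and 1468 in CTR. In IM, 48 of the 55 were lower than in CTR, against 46.9% of all tested genes, and the median difference was -0.31 on the log2(FPKM + 1) scale, against 0.02 over all genes. In IM-DSF, 52 of the 55 were lower than in DSF, against 48.3% of all genes, with a median of -0.40 against 0.01. These contrasts share no library, and 47 of the 55 genes (85.5%) were lower in both, against 33.0% of all genes. For 41 of the 55 (74.5%) the counting interval of the fold lay below 1 in both, against 18.1% of all genes. In bulk RNA, fewer cells in S phase and less of these messages per cell cannot be told apart.

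The differences were broad and mostly small. At least 0.5 log2 unit lower were 9 of the 55 genes in IM against CTR, where the share of all genes was 5.67%, and 17 in IM-DSF against DSF, where it was 6.92%. At least 0.3 log2 unit lower in both contrasts were 23 genes (41.8%), against 7.50% of all genes, and at least 0.5 lower in both were 5 (9.09%), against 1.82%: MCM6, MCM10, RRM2, CCNE1 and CDC25A. A change of 1 log2 unit in either direction was reached by CDC25A alone in each contrast, where 2.43% of all genes reached it in IM against CTR and 2.37% in IM-DSF against DSF. The counting interval lay below 1 for 43 genes in IM against CTR (29.4% of all genes) and for 49 in IM-DSF against DSF (29.3%). It lay above 1 for ORC4 and UHRF1 in IM against CTR (33.6% of all genes) and for none of the 55 in IM-DSF against DSF (31.3%).

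**Figure D1:**
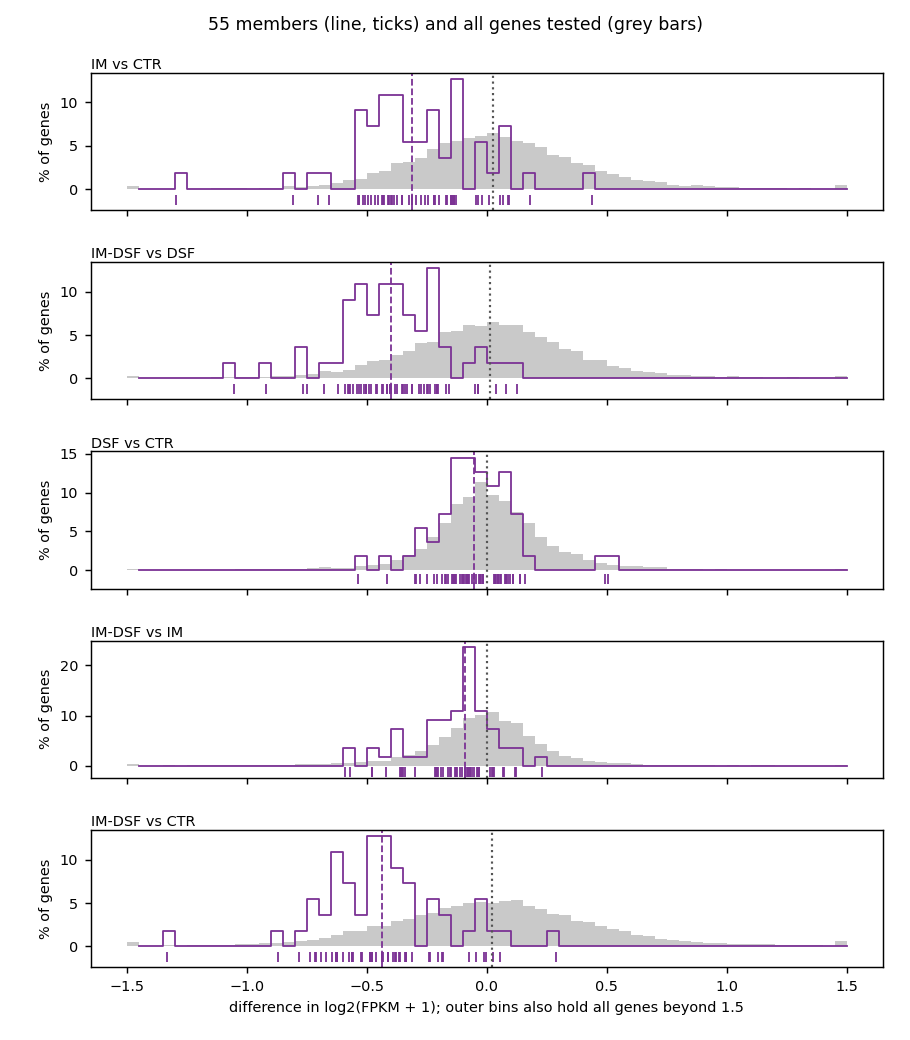
Distribution of log2(FPKM + 1) differences, as the percent of genes per bin, for the 55 replication and G1/S genes (line, with 1 tick per gene and the median dashed) and all 11004 tested genes (grey bars, median dotted) in 5 contrasts. The replication genes sit to the left of all genes in IM against CTR (median -0.31 against 0.02) and in IM-DSF against DSF (-0.40 against 0.01), and close to all genes in DSF against CTR (-0.05 against 0.00).

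The promoters of the members, 250 bases before to 50 after the start of transcription (RefSeq, GRCh38.p14), were searched for an E2F motif, spelled TTTCCCGC, TTTGGCGC, TTTCGCGC or TTTGCCGC, on both strands. Of the 55 genes, 48 had a promoter in that table; MCM4, MCM5, GINS4, POLD3, RPA2, RPA3 and CCNE2 had none. The motif was found in 24 of the 48 (50.0%), against 7.23% of 7775 tested genes with a promoter and 3.31% of 35116 promoters in all. CCAAT on either strand was found in 29 of the 48 (60.4%), against 43.6% of the tested genes, and TTTGAA in 2 (4.17%), against 13.4%. MCM6 held 4 matches to the E2F motif, the most of any member. In IM-DSF against CTR, the 24 members with the motif had a median log2 difference of -0.48 (-1.33 to 0.05) and the 24 without it -0.40 (-0.87 to 0.29), so the ranges overlapped over most of their length. Matches of different motifs were counted separately, also where they overlapped. A match describes letters in this window and is not a measured binding site.

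The 5 promoters below are those of the 4 members with the lowest IM-DSF values relative to CTR among the members with a match, and of ORC3, the member closest to 0 in that contrast; the capitals mark the match. They show that matches stand near the starts of members with larger differences and of a member near 0. CDC25A lies at chr3:48188368-48188667 (minus strand), CDC6 at chr17:40287629-40287928 (plus strand), GMNN at chr6:24775163-24775462 (plus strand), CDT1 at chr16:88803539-88803838 (plus strand) and ORC3 at chr6:87589885-87590184 (plus strand). The match begins 44 bases before the start in CDC25A, 80 before in GMNN and 7 after it in CDC6, and in CDT1 and ORC3 it is read on the opposite strand, at 35 and 12 bases before the start.
CDC25A: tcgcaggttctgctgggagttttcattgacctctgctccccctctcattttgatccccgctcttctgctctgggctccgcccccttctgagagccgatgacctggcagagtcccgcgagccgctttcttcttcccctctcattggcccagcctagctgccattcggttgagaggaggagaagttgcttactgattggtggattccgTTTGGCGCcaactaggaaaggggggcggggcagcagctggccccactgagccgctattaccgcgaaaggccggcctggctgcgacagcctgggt
CDC6: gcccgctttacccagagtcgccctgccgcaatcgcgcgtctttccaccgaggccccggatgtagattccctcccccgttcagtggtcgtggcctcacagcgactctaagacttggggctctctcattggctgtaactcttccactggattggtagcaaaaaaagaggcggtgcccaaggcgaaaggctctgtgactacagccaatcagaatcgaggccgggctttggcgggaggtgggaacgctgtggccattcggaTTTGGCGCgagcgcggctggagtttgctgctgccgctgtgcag
GMNN: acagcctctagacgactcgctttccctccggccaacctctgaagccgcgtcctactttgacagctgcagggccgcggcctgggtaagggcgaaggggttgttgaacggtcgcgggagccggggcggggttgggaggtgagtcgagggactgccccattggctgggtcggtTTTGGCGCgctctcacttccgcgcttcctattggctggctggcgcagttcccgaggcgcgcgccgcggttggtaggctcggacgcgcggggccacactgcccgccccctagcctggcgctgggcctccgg
CDT1: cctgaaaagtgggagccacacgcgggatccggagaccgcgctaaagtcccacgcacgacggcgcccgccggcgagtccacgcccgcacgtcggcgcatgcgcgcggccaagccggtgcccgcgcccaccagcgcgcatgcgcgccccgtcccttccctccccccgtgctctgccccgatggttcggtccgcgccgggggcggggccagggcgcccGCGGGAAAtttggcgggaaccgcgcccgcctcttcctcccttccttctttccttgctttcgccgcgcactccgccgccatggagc
ORC3: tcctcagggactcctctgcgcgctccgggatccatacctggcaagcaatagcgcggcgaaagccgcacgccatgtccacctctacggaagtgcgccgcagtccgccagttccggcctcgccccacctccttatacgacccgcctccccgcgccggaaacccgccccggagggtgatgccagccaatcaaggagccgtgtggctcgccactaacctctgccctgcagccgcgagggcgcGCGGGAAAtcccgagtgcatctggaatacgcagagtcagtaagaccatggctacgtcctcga

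The MCM helicase was lower as a whole. MCM2 to MCM7, the subunits of the ring that unwinds DNA, summed to 276 FPKM in IM-DSF, 306 in IM, 392 in DSF and 404 in CTR. All 6 were lower in IM than in CTR (median -0.40) and in IM-DSF than in DSF (median -0.49). Of all genes, 46.9% and 48.3% were lower in these contrasts. MCM6 (ENSG00000076003, chromosome 2, 135839626 to 135876426, minus strand) had 65.7 FPKM in IM-DSF, 70.1 in IM, 96.1 in DSF and 102 in CTR; coordinates here are those of the deposited table on GRCh38.p14. Its ratio was 0.688 (0.663 to 0.714) for IM over CTR and 0.684 (0.656 to 0.712) for IM-DSF over DSF, and it had the lowest ratio of the ring genes in IM over CTR. MCM2 had 44.3 FPKM in IM-DSF, 46.6 in IM, 63.6 in DSF and 64.2 in CTR. MCM3 had 58.2 FPKM in IM-DSF, 75.1 in IM, 89.9 in DSF and 86.5 in CTR, so its IM-DSF value stood apart below the other 3. The ratio of MCM3 was 0.869 (0.839 to 0.899) for IM over CTR and 0.647 (0.622 to 0.673) for IM-DSF over DSF, the lowest of the ring genes in that contrast. MCM4 had 46.1 FPKM in IM-DSF, 47.3 in IM, 57.5 in DSF and 61.6 in CTR. MCM5 had 17.9 FPKM in IM-DSF, 19.1 in IM, 24.1 in DSF and 24.6 in CTR. In each of these the values with IM lay below those without it. MCM7 had 43.9 FPKM in IM-DSF, 48.1 in IM, 60.8 in DSF and 65.2 in CTR, with the same order, but its locus overlaps another gene on the same strand and its value is uncertain. MCM8, a relative of the ring subunits with a role in recombination repair, had 8.11 FPKM in IM-DSF, 8.72 in IM, 10.6 in DSF and 12.4 in CTR; its locus also overlaps another gene on the same strand, with the same uncertainty.

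The origin recognition complex, which marks the sites where the ring is loaded, was less uniform. ORC1, the subunit whose level is known to follow the cell cycle, had 26.0 FPKM in IM-DSF, 27.0 in IM, 34.6 in DSF and 36.9 in CTR, and its log2 difference was -0.43 in IM against CTR and -0.40 in IM-DSF against DSF. ORC5 and ORC6 were lower in both contrasts as well, with differences of -0.24 and -0.31 in IM against CTR and -0.21 and -0.28 in IM-DSF against DSF. ORC2 and ORC3, named here after their values were seen, lay close to 0, and the counting intervals of both included 1 in both contrasts (0.06 and -0.04 in IM against CTR, 0.04 and -0.04 in IM-DSF against DSF). ORC4 (ENSG00000115947, chromosome 2, 147930397 to 148021604, minus strand) had 2.80 FPKM in IM-DSF, 3.22 in IM, 3.38 in DSF and 2.11 in CTR. It was the one subunit lowest in CTR, with a ratio of 1.52 (1.36 to 1.71) for IM over CTR and 0.828 (0.742 to 0.924) for IM-DSF over DSF, and its exons overlap ACVR2A and MBD5 on the opposite strand, so its value is uncertain if strand was not used in counting.

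The loading factors CDC6 and CDT1 and their inhibitor geminin were among the genes with the larger differences. CDC6 (ENSG00000094804, chromosome 17, 40287633 to 40304657, plus strand), the ATPase that recruits the helicase, had 10.6 FPKM in IM-DSF, 13.3 in IM, 15.8 in DSF and 19.0 in CTR, an order in which each agent's library lay below CTR and IM-DSF was lowest. The ratio of CDC6 was 0.701 (0.652 to 0.753) for IM over CTR and 0.673 (0.617 to 0.733) for IM-DSF over DSF. CDT1, the partner loader, had 13.5 FPKM in IM-DSF, 19.3 in IM, 23.7 in DSF and 21.5 in CTR. Its value in IM-DSF was the lowest of the 4, and its ratio was 0.571 (0.519 to 0.628) for IM-DSF over DSF, against 0.897 (0.827 to 0.974) for IM over CTR. GMNN (ENSG00000112312, chromosome 6, 24774931 to 24786099, plus strand) had 19.7 FPKM in IM-DSF, 22.9 in IM, 27.1 in DSF and 33.6 in CTR. The loader and its inhibitor were thus both lower in IM-DSF than in CTR, by log2 differences of -0.63 for CDT1 and -0.74 for GMNN.

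Among the 8 origin firing genes, 6 were lower in IM than in CTR (median -0.45) and 7 in IM-DSF than in DSF (median -0.37). The shares of all genes were 46.9% and 48.3%. CDC45 (ENSG00000093009, chromosome 22, 19479459 to 19520612, plus strand), which joins the ring to form the active helicase, had 20.2 FPKM in IM-DSF, 22.5 in IM, 28.8 in DSF and 32.7 in CTR. Its ratio was 0.690 (0.648 to 0.735) for IM over CTR and 0.700 (0.652 to 0.753) for IM-DSF over DSF. MCM10, which is needed to activate the assembled helicase, had 6.14 FPKM in IM-DSF, 6.07 in IM, 9.49 in DSF and 10.5 in CTR, so both values with IM lay below both without it. GINS1 had 11.0 FPKM in IM-DSF, 15.0 in IM, 15.4 in DSF and 14.9 in CTR, and its IM value was above CTR by 0.01 log2 unit, a difference whose counting interval included 1. GINS2, GINS3 and GINS4, the other subunits of the complex, had log2 differences of -0.40, -0.51 and -0.14 in IM against CTR and of -0.33, -0.38 and -0.35 in IM-DSF against DSF. CDC7, the firing kinase, did not follow: named here after its values were seen, it had 12.8 FPKM in IM-DSF, 13.2 in IM, 12.1 in DSF and 12.3 in CTR. DBF4, its activating subunit, had 3.18 FPKM in IM-DSF, 2.85 in IM, 3.65 in DSF and 4.43 in CTR. A pseudogene of DBF4, DBF4P1, carried 2.46 FPKM in IM-DSF, 2.71 in IM, 3.13 in DSF and 5.36 in CTR, so the DBF4 values are uncertain to the extent that reads were divided between the copies.

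Polymerase and primase genes showed smaller differences than the ring. All 9 were lower in IM than in CTR (median -0.21) and 8 of 9 in IM-DSF than in DSF (median -0.26), against 46.9% and 48.3% of all genes. POLA2, the regulatory subunit of the polymerase that starts each strand, had 4.09 FPKM in IM-DSF, 4.49 in IM, 6.11 in DSF and 5.88 in CTR, and POLD2, a subunit of the lagging-strand polymerase delta, had 11.6 FPKM in IM-DSF, 12.8 in IM, 17.2 in DSF and 16.7 in CTR. POLE, the catalytic subunit of the leading-strand polymerase, had 8.22 FPKM in IM-DSF, 9.31 in IM, 11.3 in DSF and 11.0 in CTR. In these genes both values with IM were below both without it. PRIM2, a primase subunit named after its values were seen, had 8.04 FPKM in IM-DSF, 7.31 in IM, 7.29 in DSF and 8.33 in CTR. It was the only gene of this group that was higher in IM-DSF than in DSF (0.13), with a counting interval that included 1 (0.980 to 1.24). The remaining subunits had log2 differences in IM against CTR of -0.21 for POLA1, -0.44 for POLE2, -0.14 for POLD1, -0.04 for POLD3 and -0.14 for PRIM1, and in IM-DSF against DSF of -0.25 for POLA1, -0.21 for POLE2, -0.43 for POLD1, -0.24 for POLD3 and -0.26 for PRIM1. POLA2, POLD1, POLD3 and PRIM1 share exon sequence with another gene on the same strand, and POLA1 and PRIM2 overlap genes there outside their exons, so the values of all 6 are uncertain.

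The clamp and the genes of the lagging strand followed the same pattern with exceptions. PCNA (ENSG00000132646, chromosome 20, 5114953 to 5126626, minus strand), the sliding clamp and the most abundant member on the FPKM scale, had 133 FPKM in IM-DSF, 170 in IM, 176 in DSF and 186 in CTR. Its ratio was 0.915 (0.879 to 0.952) for IM over CTR and 0.754 (0.720 to 0.790) for IM-DSF over DSF, and its locus overlaps another gene on the same strand, which makes its value uncertain. RFC2 (ENSG00000049541, chromosome 7, 74231499 to 74254458, minus strand), a subunit of the clamp loader, had 14.3 FPKM in IM-DSF, 12.1 in IM, 14.8 in DSF and 21.9 in CTR. CTR was the single high value for RFC2, and the 3 libraries with an agent lay together below it: the ratio was 0.552 (0.511 to 0.596) for IM over CTR but 0.972 (0.893 to 1.06) for IM-DSF over DSF. The other loader subunits RFC1, RFC3 and RFC4 were lower in both contrasts (-0.22, -0.40 and -0.29 in IM against CTR; -0.17, -0.50 and -0.57 in IM-DSF against DSF). RFC1 and RFC3 overlap other genes on the same strand and are uncertain. RFC5, named after its values were seen, lay near 0, at 0.09 and -0.05. FEN1, the nuclease that trims the flaps of lagging-strand fragments, had 39.7 FPKM in IM-DSF, 46.2 in IM, 60.2 in DSF and 61.7 in CTR, a steady order that is uncertain because its exons overlap FADS2. LIG1, the ligase that seals these fragments, differed by -0.02 in IM against CTR and -0.38 in IM-DSF against DSF.

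The 3 subunits of RPA, which coats unwound DNA, were lower with IM in both contrasts, as were 33.0% of all genes. RPA1 and RPA2, the larger subunits, differed by -0.43 and -0.31 log2 unit in IM against CTR and by -0.34 and -0.25 in IM-DSF against DSF. RPA3, the smallest subunit, had 4.03 FPKM in IM-DSF, 6.47 in IM, 7.46 in DSF and 7.27 in CTR, so IM-DSF was set apart below the other 3 libraries. Its ratio was 0.889 (0.791 to 0.9997) for IM over CTR and 0.540 (0.467 to 0.623) for IM-DSF over DSF, with an exon of UMAD1 on the opposite strand. A pseudogene of RPA2, RPA2P3, held 1.48 FPKM in IM and 0 in IM-DSF.

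Of the 4 nucleotide synthesis genes, RRM2 stood out. RRM2, the S-phase subunit of ribonucleotide reductase, had 17.3 FPKM in IM-DSF, 20.3 in IM, 26.3 in DSF and 32.5 in CTR; its ratio was 0.623 (0.595 to 0.652) for IM over CTR and 0.659 (0.625 to 0.696) for IM-DSF over DSF. Each step away from CTR was lower for RRM2, but exons of a neighbouring transcript on the same strand make its value uncertain. RRM1, the larger subunit, had 28.0 FPKM in IM-DSF, 29.5 in IM, 37.7 in DSF and 39.0 in CTR. TYMS, which makes thymidylate, had 45.5 FPKM in IM-DSF, 47.9 in IM, 60.4 in DSF and 63.9 in CTR, with ENOSF1 exons on the opposite strand. TK1, the salvage kinase for thymidine, had 8.62 FPKM in IM-DSF, 12.4 in IM, 12.7 in DSF and 11.8 in CTR: IM, DSF and CTR lay close together, and IM-DSF alone was low, with a ratio of 0.681 (0.602 to 0.770) over DSF.

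The largest difference of the 55 genes was in G1/S control. CDC25A (ENSG00000164045, chromosome 3, 48157146 to 48188402, minus strand), the phosphatase that activates cyclin-dependent kinases at the G1/S step, had 11.8 FPKM in IM-DSF, 12.1 in IM, 25.6 in DSF and 31.3 in CTR. Its values with IM were close together and lay far below those without it: the ratio was 0.388 (0.360 to 0.419) for IM over CTR, 0.462 (0.424 to 0.502) for IM-DSF over DSF and 0.972 (0.883 to 1.07) for IM-DSF over IM. CCNE1 (ENSG00000105173, chromosome 19, 29811898 to 29824308, plus strand) and CCNE2 encode the cyclins E. CCNE1 had 4.42 FPKM in IM-DSF, 5.14 in IM, 7.09 in DSF and 7.88 in CTR, and CCNE2 had 7.78 FPKM in IM-DSF, 10.2 in IM, 9.19 in DSF and 12.6 in CTR. Both cyclins were lower in IM than in CTR and in IM-DSF than in DSF. CCNE2 was also lower in DSF than in CTR and in IM-DSF than in IM, and its value in IM was above that in DSF. E2F1, the transcription factor itself, had 14.1 FPKM in IM-DSF, 16.2 in IM, 17.3 in DSF and 18.1 in CTR, a log2 difference of -0.15 in IM against CTR with a counting interval that included 1.

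The chromatin genes behind the fork were lower in IM-DSF than in DSF in all 3 cases, as were 48.3% of all genes. UHRF1, which reads hemimethylated DNA and recruits the maintenance methyltransferase, had 10.1 FPKM in IM-DSF, 15.8 in IM, 20.1 in DSF and 13.8 in CTR. UHRF1 was highest in DSF and lowest in IM-DSF, with a ratio of 1.45 (1.37 to 1.54) for DSF over CTR and 0.505 (0.473 to 0.539) for IM-DSF over DSF; its locus overlaps a microRNA gene on the same strand, so its value is uncertain. CHAF1A, the large subunit of the histone chaperone CAF-1, had 15.8 FPKM in IM-DSF, 20.3 in IM, 25.9 in DSF and 24.4 in CTR. CHAF1B, its partner, differed by -0.17 in IM against CTR and -0.31 in IM-DSF against DSF and is uncertain because its exons overlap MORC3.

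**Figure D2:**
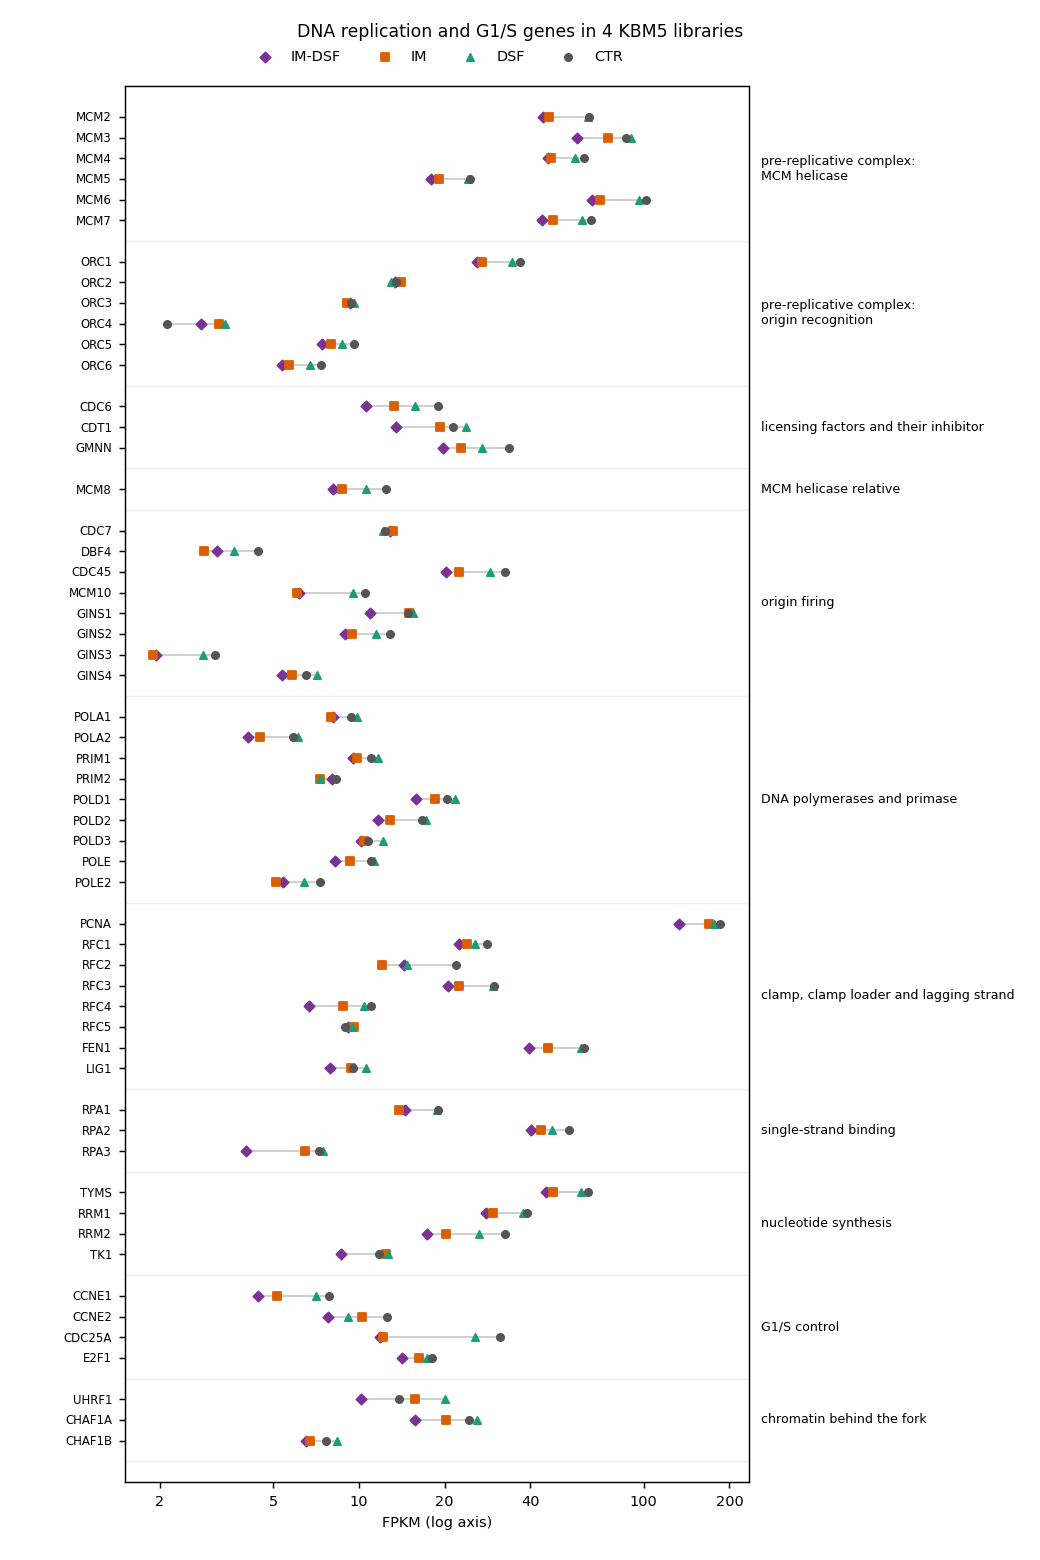
Deposited FPKM (log axis) of each of the 55 genes in the IM-DSF, IM, DSF and CTR libraries, 1 point per library, grouped by role. IM-DSF is the lowest library in 42 genes and IM in 8, while CTR is the highest in 33 and DSF in 19. The same was not counted over all genes.

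With DSF alone the set lay close to CTR. In DSF against CTR the median log2 difference of the 55 genes was -0.05, against 0.00 for all genes. Of the 55, 35 were lower, where 50.0% of all genes were. At 20 FPKM or more, 17 of 19 members were lower (median -0.08), where 61.5% of the 1528 genes at that level were (median -0.04). Below 20 FPKM, 18 of 36 members were lower (median 0.01), where 48.1% of all genes at that level were (median 0.01). The counting interval lay below 1 for 18 genes (22.2% of all genes) and above 1 for 8 (22.4%). None of the 55 reached 1 log2 unit (1.12% of all genes), 1 was at least 0.5 lower, RFC2 (2.81%), and 1 at least 0.5 higher, UHRF1 (3.49%). After RFC2, the lowest log2 differences were in CCNE2 (-0.41), GMNN (-0.30), RRM2 (-0.30), CDC25A (-0.28) and CDC6 (-0.25).

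With IM present, DSF went with slightly lower values. In IM-DSF against IM the median was -0.09, against 0.00 for all genes to 2 decimals. Of the 55 genes, 46 were lower, where 50.3% of all genes were. At 20 FPKM or more, all 19 members were lower (median -0.12), where 65.1% of the 1528 genes at that level were (median -0.07). Below 20 FPKM, 27 of 36 members were lower (median -0.09), where 47.9% of all genes at that level were (median 0.01). After rescaling to TPM, 40 were lower, where 42.0% of all genes were, with a median of -0.05 against 0.05. The counting interval lay below 1 for 28 genes (22.5% of all genes) and above 1 for RFC2 alone (21.9%). None reached 1 log2 unit (1.74% of all genes), and UHRF1 and RPA3 were at least 0.5 lower (4.65%). The contrasts of DSF with and without IM have no library in common: 28 of the 55 genes (50.9%) were lower in both, against 27.7% of all genes, and 10 had a counting interval below 1 in both, against 7.15%. These were MCM6, MCM7, CDC6, GMNN, CDC45, PCNA, RFC1, RPA2, RRM2 and CCNE2, named here after their values were seen. Intervals are narrower where more fragments were counted. Among the 1528 genes at 20 FPKM or more, some without an interval, it lay below 1 for 590 in DSF against CTR and 678 in IM-DSF against IM. Of the 19 members at that level it did so for 11 and 14. The share below 1 in both was not counted by abundance. CCNE2 was the one gene at least 0.3 log2 unit lower in both (1.59% of all genes), with differences of -0.41 in DSF against CTR and -0.35 in IM-DSF against IM.

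**Figure D3:**
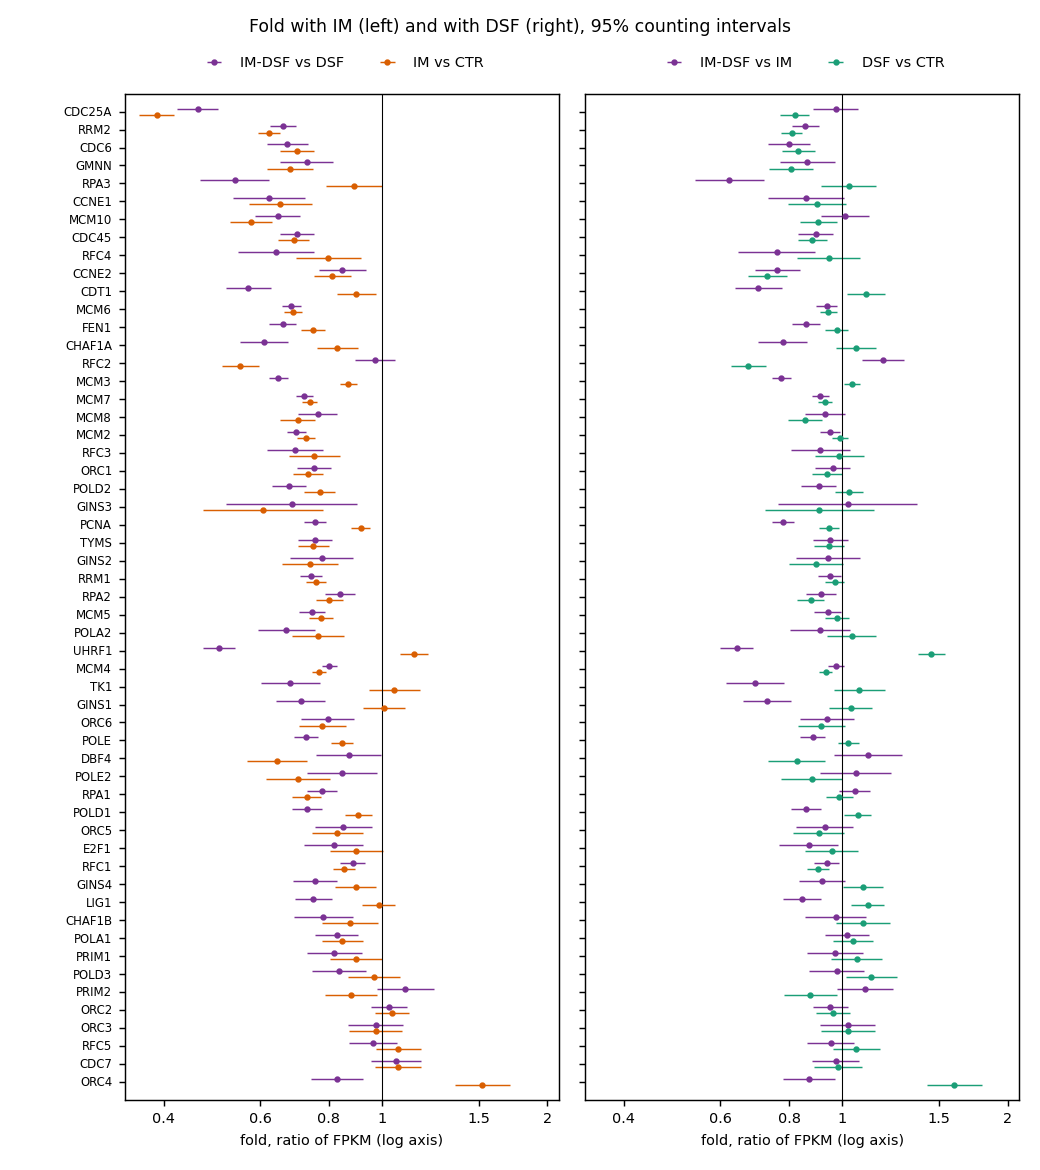
FPKM ratios (log axis) with 95% counting intervals for each of the 55 genes, with IM over CTR and IM-DSF over DSF in the left panel and DSF over CTR and IM-DSF over IM in the right. The intervals lie below 1 for 43 genes in IM over CTR and 49 in IM-DSF over DSF, against 18 in DSF over CTR and 28 in IM-DSF over IM.

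The combination most often gave the lowest value, in 42 of the 55 genes. In IM-DSF against CTR, 52 of the 55 genes were lower, where 47.9% of all genes were, with a median of -0.44 against 0.02. At least 0.5 log2 unit lower were 20 genes (10.4% of all genes), CDC25A was at least 1 lower (4.28% in either direction), and the interval lay below 1 for 48 genes (31.9%) and above 1 for ORC4 (34.6%). After CDC25A (-1.33), the lowest were RRM2 (-0.87), CDC6 (-0.78), GMNN (-0.74), RPA3 (-0.72) and CCNE1 (-0.71). The most frequent order of the libraries, low to high, was IM-DSF, IM, DSF and CTR, in 25 of the 55 genes, followed by IM-DSF, IM, CTR and DSF in 13. Neither the lowest library nor the order was counted over all genes, so these counts have no background share beside them.

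The IM-DSF difference was close to the sum of the differences of each agent alone. The departure from that sum, on the log2(FPKM + 1) scale, had a median of -0.03 over the 55 genes, against -0.01 over all genes, and was negative in 34 of the 55, where 51.6% of all genes were negative. After rescaling to TPM the median was 0.05 over the 55 genes, against 0.07 over all genes. Then 23 of the 55 were negative, where 41.1% of all genes were. The sign of the members' median thus depends on the scaling, and the median over all genes changed sign with it. A departure of at least 0.5 below 0 was seen in 5 genes, a share of 9.09% near the 7.69% of all genes: UHRF1 (-1.10), ORC4 (-0.64), CDT1 (-0.62), RPA3 (-0.60) and TK1 (-0.57). RFC2 departed upward, by 0.77.

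**Figure D4:**
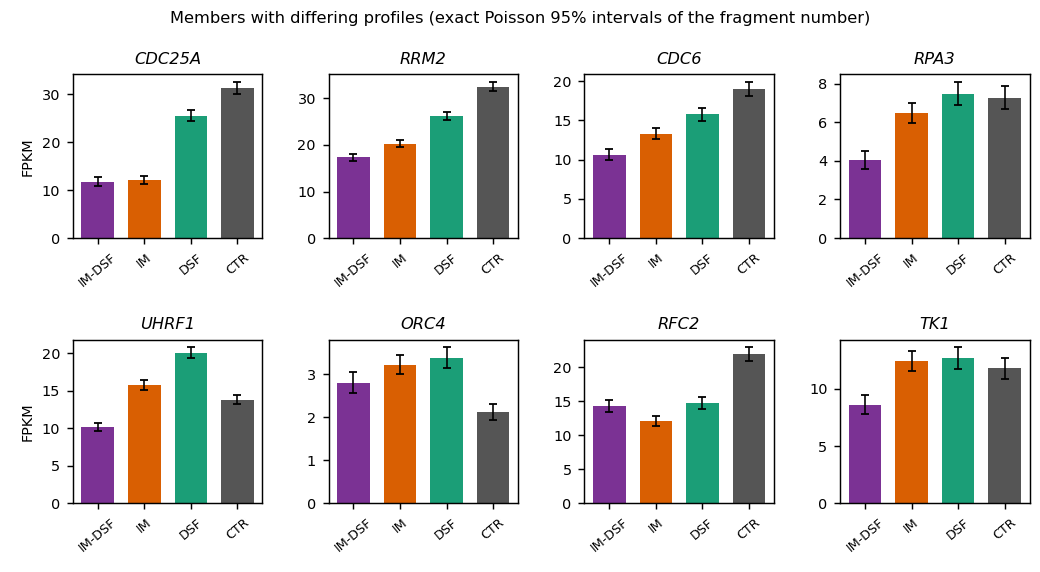
Deposited FPKM of 8 named genes in the IM-DSF, IM, DSF and CTR libraries, as bars with exact Poisson 95% intervals of the fragment number, counting error only. CDC25A has 11.8 and 12.1 FPKM in the libraries with IM and 25.6 and 31.3 in those without, while TK1, RPA3 and UHRF1 are lowest in IM-DSF, RFC2 is highest in CTR and ORC4 is lowest in CTR.

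Differences went with abundance in the table as a whole. Over the 1528 tested genes averaging 20 FPKM or more, the median log2 difference was -0.10 in IM against CTR and -0.15 in IM-DSF against DSF. The 19 members at that level had medians of -0.41 and -0.46, and all 19 were lower in both contrasts, where 60.9% and 66.7% of the genes at that level were. The counting interval lay below 1 for 775 of the 1528 genes in IM against CTR and for 847 in IM-DSF against DSF, and for all 19 members in each. The 36 less abundant members had medians of -0.19 and -0.34, while all 9476 tested genes below 20 FPKM, these members included, had 0.04 and 0.03. In IM-DSF against CTR the medians at 20 FPKM or more were -0.52 over the 19 members and -0.19 over the 1528 genes. The part of abundance in the members' differences was not tested beyond this split.

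Neighbouring pathways were described from 3 lists of genes that are no members. Of all tested genes, 46.9% were lower in IM than in CTR (median 0.02) and 48.3% in IM-DSF than in DSF (median 0.01). At 20 FPKM or more these shares were 60.9% and 66.7%. In the fork protection and checkpoint list, 25 of 29 tested genes were lower in IM than in CTR (median -0.27) and 26 in IM-DSF than in DSF (median -0.29). Its largest IM-DSF differences from CTR were in POLD4, DSCC1, ATRIP and TIPIN. DSCC1, part of an alternative clamp loader, had 15.5 FPKM in IM-DSF, 20.3 in IM, 25.1 in DSF and 28.4 in CTR, and TIPIN, a fork-stabilising partner of TIMELESS, had 4.53 FPKM in IM-DSF, 5.49 in IM, 6.82 in DSF and 8.66 in CTR. POLD4, a small polymerase delta subunit, ran the other way, with 2.09 FPKM in IM-DSF, 1.28 in IM, 0.503 in DSF and 0.620 in CTR. ATRIP, the partner of the ATR kinase, had 2.90 FPKM in IM-DSF, 8.31 in IM, 3.35 in DSF and 5.92 in CTR. All 4 overlap other genes on the same strand and are uncertain.

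In the nucleotide supply list, 21 of 27 tested genes were lower in IM than in CTR (median -0.20) and 21 in IM-DSF than in DSF (median -0.19). That is 77.8% in each, against 46.9% and 48.3% of all genes. SAMHD1, which breaks down deoxynucleotides, ran against these medians, with 105 FPKM in IM-DSF, 77.0 in IM, 56.7 in DSF and 45.3 in CTR. It was highest in IM-DSF and lowest in CTR, a ratio of 2.32 (2.22 to 2.41), while the deoxynucleotide-making RRM2 had the reverse order. DCTPP1, which clears unusual cytidine nucleotides, had 6.46 FPKM in IM-DSF, 7.58 in IM, 10.9 in DSF and 13.3 in CTR. PAICS, a purine synthesis enzyme, had 20.8 FPKM in IM-DSF, 39.0 in IM, 28.8 in DSF and 37.5 in CTR, and DTYMK, which phosphorylates thymidylate, had 8.39 FPKM in IM-DSF, 10.5 in IM, 13.7 in DSF and 14.7 in CTR. Of 32 tested G1/S regulators, 20 were lower in IM than in CTR (median -0.15) and 24 in IM-DSF than in DSF (median -0.22). MKI67, the proliferation marker, had 7.76 FPKM in IM-DSF, 27.8 in IM, 11.0 in DSF and 24.5 in CTR, so it was low in the libraries with DSF and not in IM alone. FOXM1, a driver of later cell cycle genes, had 9.66 FPKM in IM-DSF, 12.2 in IM, 15.0 in DSF and 15.9 in CTR. CCND3, a D-type cyclin, had 2.67 FPKM in IM-DSF, 3.25 in IM, 3.02 in DSF and 6.72 in CTR, and E2F3, an E2F family activator, had 10.1 FPKM in IM-DSF, 4.25 in IM, 4.53 in DSF and 5.35 in CTR; both overlap other genes on the same strand. CDKN1A did not reach the filter.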

How the data were processed

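The authors deposited 1 table of FPKM values for 50868 genes, with 1 column per library, per the file headers; the kit was a stranded mRNA kit, per the labels' protocols. The submitters' processing notes name HISAT2 2.0.4 and GRCh38.p14. Not given in the sources used here are the counter, the annotation release and whether counting used strand.

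The 55 genes and the related lists were chosen with earlier results of these data known. Differences are of log2(FPKM + 1), a scale on which changes of low genes look smaller, over the 11004 genes averaging 1 FPKM or more, and a size rule of 1 log2 unit stands in for a test, since each group has 1 library. A fold is a ratio of FPKM values. FPKM multiplied by the library denominator and by 1 length per gene gave whole fragments in all 4 libraries, within 0.002 fragment plus 3e-07 per fragment, for 10945 genes (99.5%) and all 55 members. The denominators, found from single-exon genes, of which 94.7% to 95.0% of values were whole within 0.005, were 12443256 in IM-DSF, 15810648 in IM, 14704466 in DSF and 14506545 in CTR. The smallest such length was used, so fragment numbers may be too low and intervals too wide. In 7 members it was shorter than the exon length of GENCODE 29, which also gave the overlaps. In most other members it was longer, as in MCM7 (9817 against 4386 bases), so some overlaps may be missed. No count test was run, since there are no replicates.

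Members given in every library are MCM2 to MCM7, the 8 with the largest difference in each of 5 contrasts, and further ones for their role; related genes are up to 4 per list. A marker of the erythroid list is not reported here and is left out of its sum. The 15 members with a same-strand overlap are called uncertain where they are described. In all, 19 members have exons opposite another gene, and their values are uncertain if strand was not used in counting. The opposite partner is named for ORC4, RPA3 and TYMS only. The alternatives tried were no filter, a filter of 5 FPKM, a pseudocount of 0.1, TPM, median-of-ratios and TMM scaling, and leaving out overlapping genes; those for the departure from additivity other than the pseudocount were added after seeing the data. The recovery and the intervals were tested on simulated data. Python 3.11.15, numpy 2.4.6, pandas 2.3.3 and scipy 1.17.1 were used.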

Additional observations from a re-analysis of the deposited data

Results flagged for a closer look

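In 2 members the counting intervals with IM lay on opposite sides of 1 in the presence and absence of DSF, and in 7 members those with DSF did so in the presence and absence of IM. The difference between the contrasts itself was not tested, since each group has 1 library. How many of all genes had such opposite intervals was not counted, so both counts lack a background share. For IM, ORC4 had a log2 difference of -0.20 in IM-DSF against DSF and 0.44 in IM against CTR, and UHRF1 had -0.92 in IM-DSF against DSF and 0.18 in IM against CTR.

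For DSF, the helicase subunit MCM3 had -0.36 in IM-DSF against IM and 0.06 in DSF against CTR, and the loader CDT1 had -0.48 in IM-DSF against IM and 0.14 in DSF against CTR. The polymerase subunit POLD1 had -0.21 in IM-DSF against IM and 0.09 in DSF against CTR, and the ligase LIG1 had -0.22 in IM-DSF against IM and 0.14 in DSF against CTR. ORC4 had -0.15 in IM-DSF against IM and 0.49 in DSF against CTR, and UHRF1 had -0.59 in IM-DSF against IM and 0.51 in DSF against CTR. RFC2 was the one with the reverse direction, at 0.23 in IM-DSF against IM and -0.54 in DSF against CTR. POLD1 and UHRF1 overlap other genes on the same strand.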

How the results depend on the processing

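Under the alternatives run, the median log2 difference of the members ranged from -0.36 to -0.30 in IM against CTR, from -0.42 to -0.37 in IM-DSF against DSF, from -0.09 to -0.05 in DSF against CTR, from -0.10 to -0.05 in IM-DSF against IM and from -0.47 to -0.44 in IM-DSF against CTR. The median departure from additivity ranged from -0.04 to 0.05 and was positive under TPM alone, where the median over all genes was 0.07. The counts at 1 log2 unit, which were 0 in DSF against CTR and in IM-DSF against IM and 1 in each of the other contrasts, were the same under each alternative. The count of members lower in IM-DSF against IM was 40 under TPM in place of 46, while the share of all genes was 42.0% in place of 50.3%. In DSF against CTR the members' counting intervals had a median lower limit of -0.14 log2 unit and a median upper limit of 0.04. In IM-DSF against CTR these medians were -0.61 and -0.36. The lower and upper medians can come from different genes, so the gap between them is not the interval width of a typical member. The median interval width was not computed. No paired analysis was possible because each group has 1 library. Leaving out a library was not possible for the same reason.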

Other observations

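Promoter matches were also counted outside the replication genes. Among tested genes that are no members, 539 had an E2F motif in the promoter, and their median log2 difference was -0.02 in IM against CTR and -0.01 in IM-DSF against DSF, with 52.7% and 51.2% lower. The 7189 without the motif had medians of 0.02 and 0.02, with 47.6% and 47.8% lower. In IM-DSF against CTR the median was -0.48 over the 24 members with the motif and 0.00 over the 539 other genes with it.

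In DSF against CTR the neighbouring lists lay near 0. Of all genes, 50.0% were lower in that contrast and 47.9% in IM-DSF against CTR. The median was -0.07 in fork protection and checkpoint genes (20 of 29 lower), -0.03 in nucleotide supply (17 of 27) and -0.05 in G1/S regulators (19 of 32). In IM-DSF against CTR the medians were -0.35 (26 of 29), -0.21 (21 of 27) and -0.27 (22 of 32).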
